A study of Mus musculus with 20 samples.

Results

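The mRNAs of 8 cholesterol synthesis enzymes, Hmgcs1, Idi1, Fdps, Fdft1, Sqle, Lss, Cyp51 and Dhcr7, were followed in whole brains of Katnal2-KO and WT mice. They are 8 of the 19463 genes in the deposited table and were taken by symbol, in a choice made with earlier results of these data known, and all 8 passed the filter on low values in every comparison. The mice were male and of the C57BL/6J strain, 20 in all, with 5 in each of 4 groups: WT at P21 (3 weeks), KO at P21, WT at P70 (10 weeks) and KO at P70. Katnal2 encodes a relative of the p60 subunit of katanin, an enzyme that severs microtubules. The KO line came from an EUCOMM Katnal2 tm1a allele, backcrossed to C57BL/6J, from which the cassette was removed with Protamine-Flp mice and exon 3 was then deleted by a cell-permeable Cre (HTNC) applied to early embryos, so that the deletion is present in every cell of the body. Littermates of both genotypes were housed together after weaning at about P21, so the P21 mice were sampled near weaning. Each library is poly-A RNA of a whole brain, and in such bulk samples fewer cells of a type and less RNA per cell cannot be told apart.

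Cholesterol cannot cross the blood-brain barrier in useful amounts, so the brain makes its own. Acetyl-CoA is built into mevalonate and then into isoprenoids, squalene is closed to lanosterol, and lanosterol is trimmed to cholesterol by a series of enzymes. Synthesis is most active while oligodendrocytes lay down myelin, the main store of brain cholesterol, and the genes of the pathway share the transcription factor SREBP-2 (Srebf2), which is cut and sent to the nucleus when membrane sterol is low.

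The genes lie on 7 chromosomes of the GRCm38 build (GENCODE M21). Hmgcs1 is at chr13:119690379-119708260 and Idi1 at chr13:8885501-8892451, both on the plus strand, Fdps at chr3:89093588-89101959 (minus) and Fdft1 at chr14:63145150-63179578 (minus). Sqle is at chr15:59315077-59331192 (plus), Lss at chr10:76531588-76557138 (plus), Cyp51 at chr5:4081145-4104746 (minus) and Dhcr7 at chr7:143823145-143848410 (plus). RefSeq promoter windows, which run from 250 bases before a gene's start to 50 bases after it, were at hand for 5 members (Hmgcs1, Idi1, Lss, Cyp51 and Dhcr7). These windows were searched on both strands for the sterol regulatory element TCACNCCAC, the E-box CACGTG, the CCAAT box that NF-Y binds, and the GC box GGGCGG. The windows of Hmgcs1, Idi1 and Cyp51 are shown because these 3 genes were among the most lowered with age, and the capitals mark matches to the first 3 motifs, on either strand.
Hmgcs1, chr13:119690101-119690400, plus strand, GRCm38.p6: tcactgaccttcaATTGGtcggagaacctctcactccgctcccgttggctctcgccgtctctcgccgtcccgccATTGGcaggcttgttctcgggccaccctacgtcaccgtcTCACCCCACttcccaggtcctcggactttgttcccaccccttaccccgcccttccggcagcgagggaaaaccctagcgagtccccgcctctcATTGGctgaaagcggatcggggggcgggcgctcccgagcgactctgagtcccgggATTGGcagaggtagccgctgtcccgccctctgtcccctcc
Idi1, chr13:8885356-8885655, plus strand, GRCm38.p6: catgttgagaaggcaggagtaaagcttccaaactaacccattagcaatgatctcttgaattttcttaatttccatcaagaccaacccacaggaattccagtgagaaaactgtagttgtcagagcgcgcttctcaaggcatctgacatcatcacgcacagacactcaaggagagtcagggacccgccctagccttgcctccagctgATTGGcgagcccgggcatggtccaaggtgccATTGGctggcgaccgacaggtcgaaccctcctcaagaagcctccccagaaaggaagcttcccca
Cyp51, chr5:4104648-4104947, minus strand, GRCm38.p6: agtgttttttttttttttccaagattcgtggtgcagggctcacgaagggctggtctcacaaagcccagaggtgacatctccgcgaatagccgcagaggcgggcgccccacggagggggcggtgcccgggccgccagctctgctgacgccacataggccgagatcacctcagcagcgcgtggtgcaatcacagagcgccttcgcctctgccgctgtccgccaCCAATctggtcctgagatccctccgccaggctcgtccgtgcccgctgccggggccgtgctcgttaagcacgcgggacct

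The sterol regulatory element was matched in the Hmgcs1 window, as TCACCCCAC beginning 137 bases before the start, and in no other member's window, and 1.24% of all 32851 windows held a match. The Hmgcs1 window held 4 CCAAT boxes, that of Idi1 held 2, those of Lss and Cyp51 held 1 each, and 1 of the 3 windows of Dhcr7 held 2. A CCAAT box was in 37.4% of all windows. The E-box was matched in 1 window of Dhcr7 (7.15% of all windows), and a GC box was in at least 1 window of each of the 5 members (35.7% of all windows). Only exact matches to these letters were counted, so a variant form of the sterol regulatory element in any window would have been missed. These counts describe letters in 300 bases and say nothing of a factor's binding.

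The deposited values are counts that the authors normalized with DESeq2, and they sum to 27310523 to 28423042 in each mouse, so the sums do not give depth. For depth, the densest point of the low values of each mouse was taken as the value of 1 read. This rested on only 9 to 132 low values per mouse. It gave about 26000000 to 36000000 reads per mouse at P21 and 23300000 to 27700000 at P70. Katnal2 itself was lower in KO mice, at 78.1 to 96.0 normalized counts against 99.3 to 115 in WT mice at P21, where the groups did not overlap, and at 95.1 to 125 against 101 to 141 at P70, where they did. Its log2 fold changes were -0.27 and -0.21 (adjusted p = 1.00 for both). Deleting exon 3 leaves the rest of the transcript to be counted, so these levels check the labels only in part. Both replicate 5 mice at P70 stood apart from the other 4 mice of their group. The SD over 12798 genes of their log2 difference from those 4 was 0.42 in WT and 0.53 in KO, against 0.16 to 0.28 for every other mouse, and across genes, which are not independent replicates, the WT and KO differences had r = 0.88. The same differences had r = -0.47 (WT) and -0.46 (KO) across genes with log2 transcript length. Where the call of a named gene with age changed without these mice, its value with replicate 5 of every group left out is given beside it.

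From P21 to P70 the 8 enzymes were lower in both genotypes. In WT mice 7 of 8 fell past the threshold (limma, Benjamini-Hochberg adjusted p under 0.05), against 4.7% of 17630 tested genes that fell and 4.62% that rose. In KO mice 6 of 8 fell, against 4.53% of 17641 genes that fell and 3.78% that rose. The median log2 fold change of the members was -0.61 in WT and -0.68 in KO mice, beside 0.00 and -0.01 over all genes tested. The groups of different ages did not overlap for 6 of 8 members in WT mice (5.6% of all genes were lower without overlap) and for the same 6 in KO mice (5.52%). The WT and KO comparisons share no mouse. The labels do not say whether both ages were collected and sequenced together, so age and any such difference cannot be told apart.

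**Figure D1:**
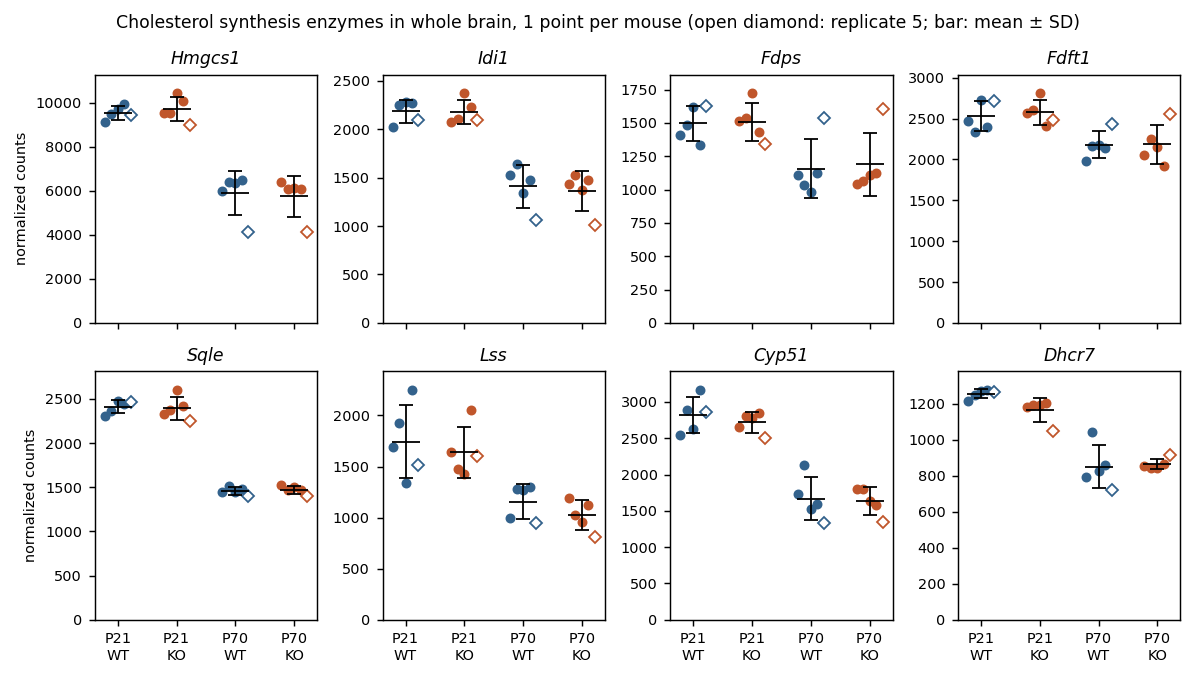
Normalized counts (y axis, from 0) of the 8 enzymes in each of 20 mice by group (x axis); filled circles are replicates 1 to 4, open diamonds replicate 5, and bars the mean ± SD of 5 mice. Each enzyme had lower means at P70, KO and WT mice lay close together at each age, and the P70 replicate 5 mice were lowest for Hmgcs1 and Idi1 and highest for Fdps and Fdft1.

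The plot of values by mouse shows the enzymes in pathway order, beginning with those that make mevalonate and isoprenoids. Hmgcs1, the cytosolic HMG-CoA synthase, was at 9107, 9498, 9699, 9926 and 9434 normalized counts in WT mice 1 to 5 at P21 and at 5974, 6419, 6359, 6506 and 4128 at P70. In KO mice it was at 9514, 9520, 10446, 10065 and 9001 at P21 and at 6397, 6061, 6146, 6083 and 4108 at P70. Every P70 mouse was below every P21 mouse in both genotypes, and replicate 5 was the lowest at P70 by a wide margin in both. Hmgcs1 fell by 0.72 ± 0.11 on the log2 scale in WT (SE, adjusted p = 0.00123) and by 0.77 ± 0.11 in KO mice (adjusted p = 0.00118), that is, it was 39.2% and 41.3% lower. Without the replicate 5 mice the log2 fold changes were -0.60 and -0.68.

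Idi1, the isomerase that turns isopentenyl diphosphate into its reactive partner, was at 2029, 2256, 2277, 2270 and 2095 in WT mice at P21 and at 1529, 1641, 1342, 1475 and 1061 at P70. KO mice had 2080, 2106, 2376, 2233 and 2094 at P21 and 1435, 1524, 1377, 1478 and 1010 at P70. The ages did not overlap in either genotype, and replicate 5 was again lowest at P70. Idi1 fell by 0.65 ± 0.10 (SE, adjusted p = 0.00171) in WT and by 0.69 ± 0.10 (adjusted p = 0.00179) in KO mice.

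Fdps, which joins isoprenoid units into farnesyl diphosphate, was at 1412, 1487, 1620, 1334 and 1628 in WT mice at P21 and at 1107, 1033, 980, 1121 and 1537 at P70. The KO values were 1512, 1533, 1725, 1432 and 1343 at P21 and 1042, 1067, 1108, 1128 and 1607 at P70. Replicates 1 to 4 at P70 were below all P21 mice of their genotype, whereas both P70 replicate 5 mice lay within the P21 range, so the groups overlapped. The log2 fold change was -0.39 ± 0.11 (SE, adjusted p = 0.0447) in WT and -0.36 ± 0.12 (adjusted p = 0.0841) in KO mice. The WT call was lost when any 1 of the other 9 mice was left out, with adjusted p of 0.0607 to 0.106. Without the replicate 5 mice Fdps fell by 0.46 (adjusted p = 0.00194) in WT and by 0.51 (adjusted p = 0.000287) in KO mice.

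Fdft1, squalene synthase, commits farnesyl diphosphate to sterols. It was at 2475, 2340, 2724, 2392 and 2722 in WT mice at P21 and at 1976, 2164, 2179, 2145 and 2436 at P70. In KO mice it was at 2573, 2608, 2815, 2410 and 2484 at P21 and at 2059, 2251, 2148, 1916 and 2557 at P70. The ages overlapped through replicate 5 alone, the highest P70 mouse in both genotypes. The log2 fold change was -0.22 ± 0.07 (SE, adjusted p = 0.0831) in WT and -0.24 ± 0.08 (adjusted p = 0.0893) in KO mice, the smallest of the 8, and did not pass the threshold in either. Without the replicate 5 mice it did, at -0.23 (adjusted p = 0.0273) and -0.31 (adjusted p = 0.00547), so that all 8 members fell in both genotypes there, where 6.99% of 17653 genes fell in WT and 9.69% in KO mice.

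Sqle, squalene epoxidase, performs the first oxygen-dependent step and is a control point of the pathway. It was at 2302, 2368, 2481, 2441 and 2461 in WT mice at P21 and at 1447, 1510, 1448, 1479 and 1396 at P70. KO mice had 2325, 2370, 2604, 2418 and 2250 at P21 and 1523, 1471, 1500, 1464 and 1400 at P70. The ages were far apart and the mice of a group close together, with a coefficient of variation of 2.92% in WT and 3.16% in KO mice at P70, and replicate 5 differed from the other 4 by only -0.08 and -0.09 on the log2 scale. Sqle fell by 0.73 ± 0.06 (SE, adjusted p = 7.37e-06) in WT and by 0.70 ± 0.06 (adjusted p = 4.53e-05) in KO mice, the smallest adjusted p of the 8 in each, and was 39.6% and 38.5% lower.

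Lss, lanosterol synthase, closes the rings. It was at 1695, 1922, 1336, 2252 and 1518 in WT mice at P21 and at 993, 1278, 1268, 1296 and 943 at P70. The KO values were 1638, 1472, 1426, 2056 and 1606 at P21 and 1192, 1026, 959, 1125 and 813 at P70. Lss varied most among mice at P21, with a coefficient of variation of 20.4% in WT and 15.2% in KO mice, and replicate 4 was highest in both genotypes, yet the ages did not overlap. Lss fell by 0.58 ± 0.14 (SE, adjusted p = 0.0180) in WT and by 0.68 ± 0.12 (adjusted p = 0.00430) in KO mice. Without WT mouse 2 of P21 the WT adjusted p was 0.0507.

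Cyp51, the lanosterol 14-alpha demethylase, takes the first carbon off lanosterol. It was at 2551, 2886, 2622, 3168 and 2861 in WT mice at P21 and at 1733, 2132, 1524, 1597 and 1338 at P70. In KO mice it was at 2661, 2809, 2775, 2848 and 2501 at P21 and at 1799, 1805, 1641, 1580 and 1345 at P70. The ages did not overlap, and replicate 5 was lowest at P70 in both genotypes. Cyp51 fell by 0.77 ± 0.11 (SE, adjusted p = 0.000779) in WT, the largest change of the 8 there, and by 0.74 ± 0.08 (adjusted p = 0.000290) in KO mice. Without the replicate 5 mice this WT rank passed to Sqle, with log2 fold changes of -0.70 for Sqle and -0.69 for Cyp51.

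Dhcr7, the reductase that finishes cholesterol in one branch of the pathway, was at 1218, 1248, 1272, 1278 and 1265 in WT mice at P21 and at 796, 1041, 828, 859 and 720 at P70. KO mice had 1184, 1195, 1194, 1204 and 1050 at P21 and 852, 845, 843, 868 and 915 at P70. The ages did not overlap, and at P70 replicate 5 was the lowest WT mouse and the highest KO mouse. Dhcr7 fell by 0.58 ± 0.09 (SE, adjusted p = 0.00135) in WT and by 0.43 ± 0.06 (adjusted p = 0.00158) in KO mice.

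**Figure D2:**
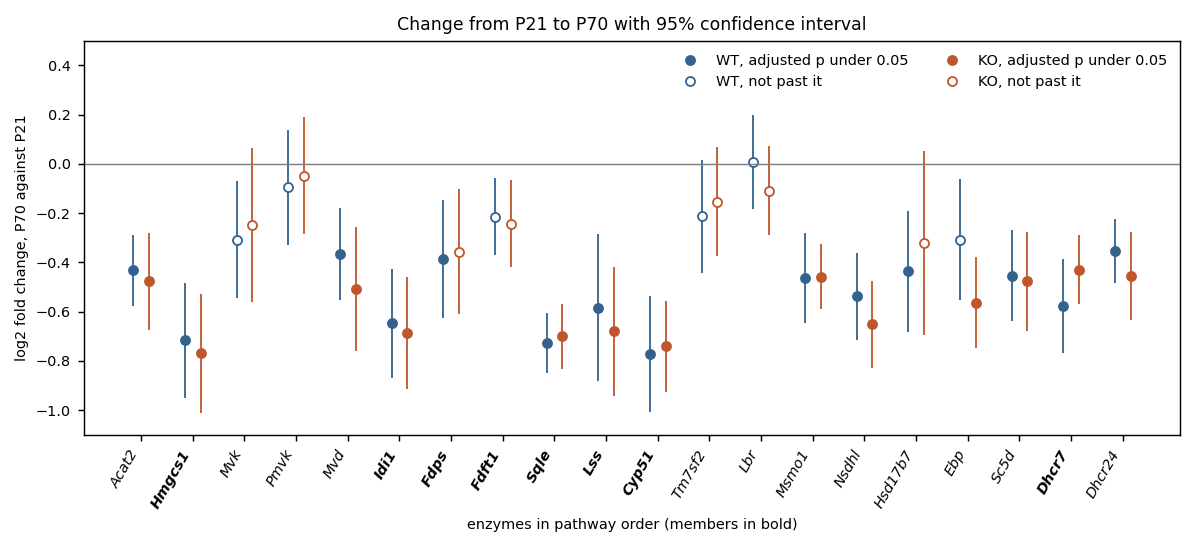
Log2 fold change from P21 to P70 (y axis) of 20 enzymes in pathway order (x axis, members in bold) in WT (blue) and KO (orange) mice, with 95% confidence intervals; filled points passed the adjusted threshold. The members reached -0.77, and of the enzymes plotted Pmvk, Tm7sf2 and Lbr stayed nearest to 0. Ggps1 and Erg28 are not plotted.

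The other enzymes of the pathway were also lower at P70 where they changed, as the plot along the pathway shows. Of 14 listed, 7 fell in WT and 7 in KO mice, none rose, and the median log2 fold change was -0.33 and -0.39. The plot leaves out 2 of the 14, Ggps1, which makes geranylgeranyl diphosphate off the sterol line (-0.07 in WT and 0.02 in KO mice, adjusted p = 0.677 and 0.948), and Erg28 (-0.18 and -0.21, adjusted p = 0.146 and 0.136), and both were named after their values were seen. Nsdhl, which removes carbons from the sterol ring, fell by 0.54 in WT and 0.65 in KO mice, Msmo1, which acts just before it, by 0.46 in both, and Sc5d, a late desaturase, by 0.45 and 0.48. Hsd17b7, a sterol ketone reductase, fell by 0.44 in WT mice and had -0.32 (adjusted p = 0.295) in KO mice. Its WT call was lost when 1 mouse was left out (adjusted p of 0.0546 to 0.0792) unless this was mouse 3 of P21 or mouse 2, 4 or 5 of P70, and its KO value was -0.13 without mouse 5 of P70 and -0.14 without all replicate 5 mice.

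Among 12 genes that sense sterol or control SREBP, 1 rose and 1 fell in each genotype. Srebf2, which encodes SREBP-2, was at 6343 ± 273 and 6665 ± 280 (mean ± SD, n = 5) at P21 and P70 in WT and at 6394 ± 142 and 6776 ± 89.8 in KO mice, with log2 fold changes of 0.07 (95% interval -0.05 to 0.19, adjusted p = 0.474) and 0.08 (-0.02 to 0.19, adjusted p = 0.340). Insig1, which holds SREBP in the endoplasmic reticulum and is itself a target of it, fell by 0.36 in both. Srebf1, which encodes SREBP-1 and is better known for fatty acid genes, rose by 0.47 in WT and 0.60 in KO mice. Of 16 genes of sterol uptake and transport, 1 fell and 1 rose in each genotype. Npc2, a lysosomal sterol carrier, fell by 0.32 in WT and 0.39 in KO mice, and Lrp1, a receptor for lipoproteins with apolipoprotein E, rose by 0.38 and 0.40. Both calls depended on single mice. With 1 mouse left out, that of Npc2 was lost in 7 of 10 fits in WT (adjusted p of 0.0523 to 0.0651, kept without mouse 1 of P21 and mice 1 and 5 of P70) and in 9 of 10 in KO mice (0.0522 to 0.0931, kept without mouse 5 of P70). That of Lrp1 was lost in 6 fits in WT (0.0631 to 0.0999, kept without mouse 3 of P21 and mice 2, 3 and 5 of P70) and in 7 in KO mice (0.0606 to 0.0934, kept without mice 1, 2 and 5 of P70).

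Genes of sterol efflux, turnover and storage went the other way where they changed: 4 of 13 rose in WT and 2 in KO mice, and none fell. Nr1h3, the liver X receptor alpha that answers to oxysterols, rose by 0.59 in WT and 0.58 in KO mice, and Abca7, a lipid transporter, rose by 0.43 and 0.35. Nr1h2, the beta receptor, rose by 0.47 in WT mice and had 0.30 (adjusted p = 0.143) in KO mice, and the sterol transporter Abcg1 rose by 0.24 in WT mice and had 0.15 (adjusted p = 0.251) in KO mice. Leaving out 1 mouse ended the Nr1h3 call in 6 of 10 fits in WT (adjusted p of 0.0541 to 0.0760, kept without mouse 3 of P21 and mice 2, 3 and 5 of P70) and in 6 in KO mice (0.0502 to 0.0691, kept without mouse 3 of P21 and mice 2, 3 and 5 of P70). Without all replicate 5 mice Nr1h3 in WT mice had 0.46 (adjusted p = 0.0651). The Abca7 call was lost in WT mice without mouse 3, 4 or 5 of P21 (0.0514 to 0.0545) and in KO mice in all fits but that without mouse 5 of P70 (0.0512 to 0.101), and the Abcg1 call in 6 WT fits (0.0546 to 0.0781, kept without mouse 3 of P21 and mice 2, 4 and 5 of P70). Nr1h2 in KO mice passed without mouse 5 of P70, at 0.18 (adjusted p = 0.0422), and had 0.16 (adjusted p = 0.0888) without all replicate 5 mice.

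Of 13 genes of fatty acid synthesis, 3 fell in WT and 2 in KO mice, with Elovl1, which makes very long chains, falling by 0.72 and 0.81. Elovl6, another elongase, and Me1, which supplies NADPH, fell by 0.34 and 0.26 in WT mice and had -0.35 and -0.22 (adjusted p = 0.0823 and 0.0800) in KO mice. With 1 mouse left out, the WT call of Elovl6 was lost in 8 of 10 fits (adjusted p of 0.0568 to 0.128, kept without mouse 3 of P21 and mouse 5 of P70) and that of Me1 in 7 (0.0618 to 0.0971, kept without mouse 1 of P21 and mice 4 and 5 of P70). Both passed in KO mice without mouse 5 of P70, at -0.24 (adjusted p = 0.0201) and -0.19 (0.0389). Without all replicate 5 mice Elovl6 had -0.24 (adjusted p = 0.0602) in WT and -0.25 (0.0306) in KO mice, and Me1 in KO mice did not pass, at -0.17 (0.0841). The second gene that fell in KO mice was Acss2, an acetyl-CoA synthetase, by 0.31, with -0.25 (adjusted p = 0.0523) in WT mice. Its KO call was lost without mouse 1 of P21 (0.0544) or mouse 3 of P70 (0.0506). In WT mice Acss2 passed without mouse 5 of P70 (0.0109) or without all replicate 5 mice (-0.28, adjusted p = 0.0236). Acss2, and the astrocyte marker Sox9 among the marker lists, were chosen after their values were seen. None of 12 genes of the non-sterol branch, which uses isoprenoids for prenylation, dolichol and coenzyme Q, passed the threshold in either genotype (limma), with log2 fold changes of -0.17 to 0.33 in WT mice, and 2 in WT and 4 in KO mice had an unadjusted p under 0.05.

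**Figure D3:**
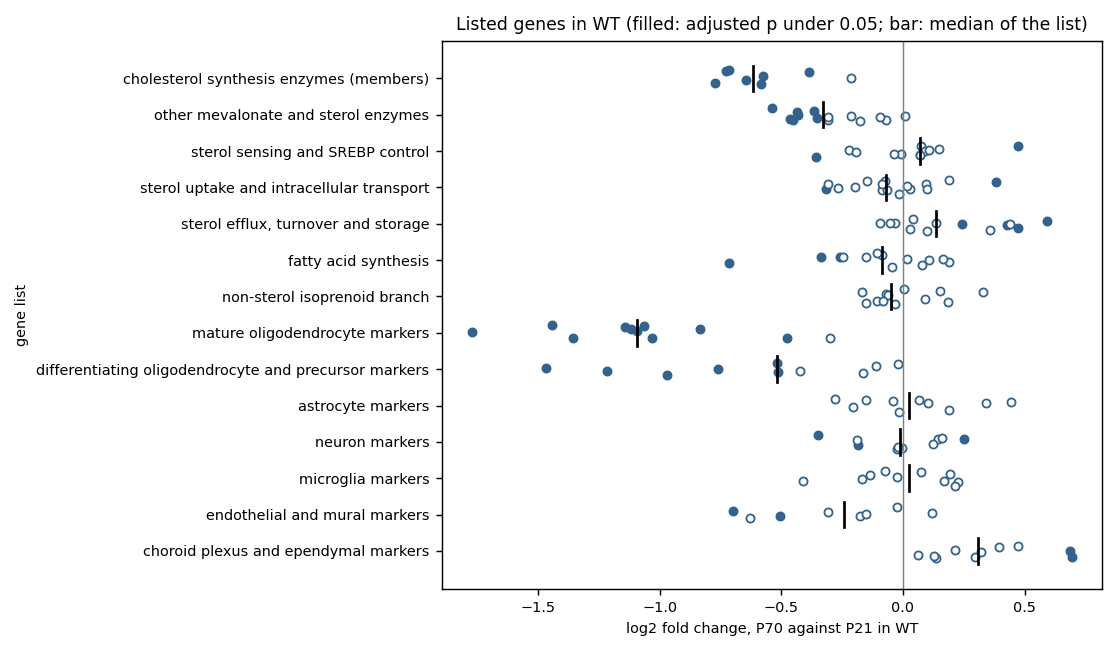
Log2 fold change from P21 to P70 in WT mice (x axis) of each listed gene, by list (y axis); filled points passed the adjusted threshold and bars are list medians. The members had a median of -0.61 and mature oligodendrocyte markers one of -1.09.

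Markers of oligodendrocytes moved with the members, as the plot by list shows. Mature markers fell in 10 of 11 genes in each genotype, with a median log2 fold change of -1.09 in WT and -1.26 in KO mice. Their summed level was 274475 to 317976 at P21 and 127490 to 153787 at P70 in WT, and 277749 to 419307 and 113273 to 160811 in KO mice. Ugt8a, which makes myelin galactolipid, fell by 1.77 and 1.90 on the log2 scale, and Mbp, myelin basic protein, was 54.7% lower in WT and 59.3% lower in KO mice. The myelin proteins Mog and Cldn11 had log2 fold changes of -1.44 and -1.36 in WT and -1.64 and -1.65 in KO mice. Markers of differentiating cells and precursors fell in 6 of 10 genes in WT and 7 of 10 in KO mice, among them Enpp6 (-1.47 and -1.69), Gpr17 (-1.22 and -1.38), Bmp4 (-0.97 and -1.01) and Vcan (-0.76 and -0.95). Their summed level was 20836 to 27013 at P21 and 15449 to 18197 at P70 in WT, and 22375 to 28049 and 14048 to 17592 in KO mice. No defining marker was listed at 0, and the part of these cells in the fall of the enzymes was not tested.

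Other marker lists had fewer genes past the threshold. Of 10 neuron markers, Snap25 rose by 0.25 in WT and 0.29 in KO mice, Stmn2 fell by 0.35 and 0.32, and Slc17a7 fell by 0.19 in WT mice and had -0.16 (adjusted p = 0.142) in KO mice. The Slc17a7 call in WT mice was lost in 9 of 10 fits with 1 mouse left out (adjusted p of 0.0590 to 0.122, kept without mouse 5 of P70), and in KO mice it passed without mouse 5 of P70, at -0.20 (0.00605), and without all replicate 5 mice, at -0.21 (0.0120). None of 10 astrocyte markers passed in WT mice (limma, 4 at an unadjusted p under 0.05) and 1 rose in KO mice, Sox9 by 0.59, with 0.44 (adjusted p = 0.0654) in WT mice, where it passed without mouse 4 of P70 (0.0183) or without all replicate 5 mice (0.39, adjusted p = 0.0390). No microglia marker of 10 passed in either genotype (1 in WT and 0 in KO mice at an unadjusted p under 0.05). In each genotype 2 of 8 endothelial and mural markers fell, Slco1a4 by 0.70 and 0.52 and Rgs5 by 0.50 and 0.43. In KO mice the Slco1a4 call was lost without mouse 1, 4 or 5 of P21 or mouse 3 or 4 of P70 (adjusted p of 0.0531 to 0.0600) and that of Rgs5 without mouse 1 or 5 of P21 or mouse 3 of P70 (0.0513 to 0.0568). Of 10 choroid plexus and ependymal markers, Kcnj13 and Kl rose in WT mice, by 0.70 and 0.69, and none passed in KO mice (limma, 2 at an unadjusted p under 0.05). The Kcnj13 call was lost in 8 of 10 fits with 1 mouse left out (adjusted p of 0.0620 to 0.116, kept without mouse 5 of P21 and mouse 4 of P70), and held without all replicate 5 mice, at 0.77 (0.0133). Kl passed in KO mice without mouse 4 or 5 of P70, at 0.66 (0.0484) and 0.65 (0.0146), and without all replicate 5 mice, at 0.57 (0.0322). No choroid plexus or ependymal marker passed in the age by genotype interaction (limma, 0 at an unadjusted p under 0.05).

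KO and WT mice of the same age were compared to ask whether loss of Katnal2 changed the enzymes. At P21 no member and 0.0% of 17610 genes passed the adjusted threshold (limma), and 1 of 8 members and 2.44% of genes (429) had an unadjusted p under 0.05. At P70 again no member and 0.0% of 17613 genes passed, and none of 8 members and 1.13% of genes (199) had an unadjusted p under 0.05. The members' log2 fold changes ran from -0.11 to 0.03 at P21 and from -0.17 to 0.04 at P70, with a median of -0.01 at each age. No marker list had a gene past the threshold either, but choroid plexus and ependymal markers were above 0 in 10 of 10 genes at both ages (medians 0.28 and 0.22), and mature oligodendrocyte markers in 10 of 11 at P21 (median 0.10) and 3 of 11 at P70 (median -0.07). An unadjusted p under 0.05 (limma) was reached by 3 choroid plexus and ependymal markers at P21 and 0 at P70. It was reached by 0 mature oligodendrocyte markers at either age. The part of these markers in the members' values was not tested.

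Dhcr7 was the member with that p at P21. All 5 KO mice (1050 to 1204) were below all 5 WT mice (1218 to 1278), though the highest KO and the lowest WT mouse were close, and 0.204% of all genes were lower in KO mice without overlap. Its log2 fold change was -0.11 ± 0.05 (SE, unadjusted p = 0.0441, adjusted p = 1.00 by limma), or 7.33% lower, and it did not pass the adjusted threshold. Without KO mouse 5, the lowest, it was -0.07. No member had an unadjusted p under 0.05 at P21 in 7 of 10 fits with 1 mouse left out (WT mouse 2, 3, 4 or 5, or KO mouse 1, 2 or 5), with all 20 mice in 1 fit, or without the replicate 5 mice. At P70 the Dhcr7 groups overlapped and the difference was 0.04.

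**Figure D4:**
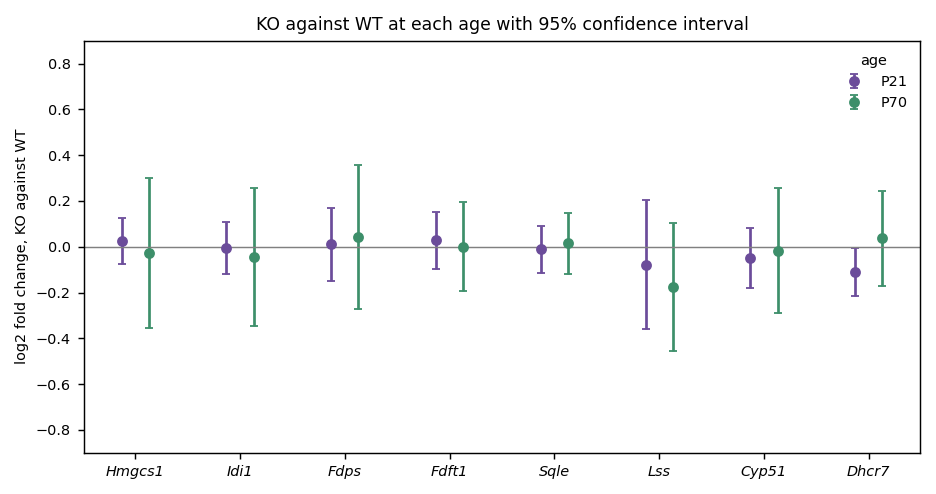
Log2 fold change of KO against WT mice (y axis) for the 8 enzymes (x axis) at P21 (violet) and P70 (green), with 95% confidence intervals from 5 mice per group. All intervals include 0 except that of Dhcr7 at P21, whose adjusted p was 1.00.

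For the remaining members the plot of KO against WT shows how large a difference these mice could have hidden. At P21 the 95% interval of the log2 fold change was -0.07 to 0.12 for Hmgcs1, -0.12 to 0.11 for Idi1, -0.15 to 0.17 for Fdps and -0.10 to 0.15 for Fdft1. It was -0.11 to 0.09 for Sqle, -0.36 to 0.20 for Lss and -0.18 to 0.08 for Cyp51. At P70 the intervals were wider for every member but Lss, from -0.12 to 0.15 for Sqle to -0.35 to 0.30 for Hmgcs1, and Lss had the largest difference, -0.17 (-0.45 to 0.11). These P70 intervals include the replicate 5 mice, which differed from their groups alike in WT and KO for Hmgcs1 (-0.61 and -0.59) and Fdps (0.54 and 0.57). Without the replicate 5 mice the P70 difference was -0.03 ± 0.04 (SE) for Hmgcs1 and 0.04 ± 0.06 for Fdps. The SE was then still 0.09 for Cyp51 and for Lss. For each member, the point estimate of its log2 fold change with age lay outside its intervals for genotype. The intervals of the age changes are not weighed in this. Fdft1 in both genotypes and Fdps in KO mice did not pass the threshold with age.

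Whether the fall with age differed between genotypes was tested as the age by genotype interaction over all 20 mice. No member and 0.0% of 17637 genes passed (limma), and no member and 1.68% of genes (296) had an unadjusted p under 0.05. The interaction was largest for Dhcr7, at 0.15 (95% interval -0.07 to 0.37, adjusted p = 1.00), and without the replicate 5 mice it was 0.03. The other 7 had values from -0.10 to 0.03. The members' median was -0.00026, with 4 above and 4 below 0. Mature oligodendrocyte markers were below 0 in 10 of 11 genes (median -0.16), and 2 had an unadjusted p under 0.05 (limma). Differentiating and precursor markers were below 0 in 9 of 10 (median -0.13), with 1 at that p. Genes of fatty acid synthesis and of sterol efflux, turnover and storage were each below 0 in 12 of 13, with 0 at that p.

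**Figure D5:**
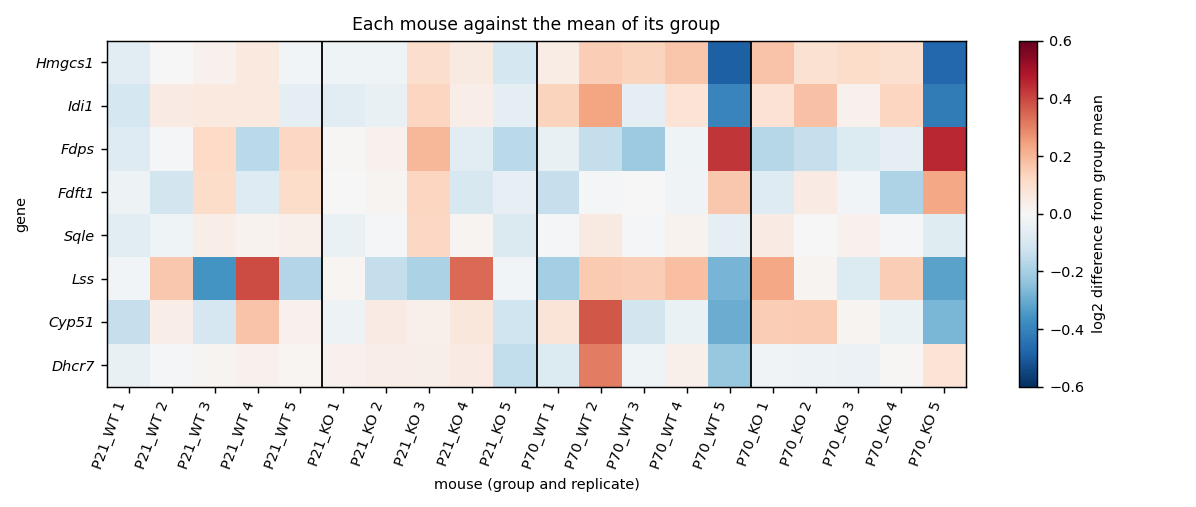
Log2 difference of each of 20 mice (x axis) from the mean of its group, for the 8 enzymes (y axis); red is above and blue below the group mean. The P70 replicate 5 mice were low for Hmgcs1 and Idi1 and high for Fdps in both genotypes.

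Within a group the members did not vary as a block, as the map of mouse deviations shows. After group means were subtracted, the median Pearson r over the 28 pairs of members was 0.32 over 20 mice, and 18 pairs were above 0. Without the replicate 5 mice the median was 0.35, with 21 pairs above 0. It was 0.45 at P21 alone (23 pairs above 0) and 0.41 at P70 alone (16 pairs). These points share libraries and a common scaling, and r is a description. Cyp51, Sqle, Idi1, Hmgcs1 and Dhcr7 followed the mean of the other members (r = 0.78, 0.76, 0.68, 0.62 and 0.61), and without the replicate 5 mice their order turned (0.60, 0.61, 0.65, 0.68 and 0.67). Lss had 0.20, and -0.09 without these mice. Fdft1 (-0.49) and Fdps (-0.70) ran against the mean, and had -0.09 and -0.28 without them.

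The P70 replicate 5 mice set much of this contrast. Against the mean of the other 4 mice on the log2 scale, Hmgcs1 was -0.61 in WT and -0.59 in KO, Idi1 -0.49 and -0.52, Lss -0.35 and -0.40, and Cyp51 -0.37 and -0.34. Fdps was 0.54 and 0.57 and Fdft1 0.20 and 0.29. At P21 the replicate 5 mice differed from their groups by -0.22 to 0.16 over the 8 members. The part of transcript length in this was not tested for the members, whose longest transcripts measure 2.82 to 6.99 kb.

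No steady relation of the members' mean to Srebf2, Katnal2 or the mature oligodendrocyte marker mean was seen. With the marker mean r was 0.42 over 20 mice, -0.04 without the replicate 5 mice, 0.68 at P21 and -0.47 at P70 without them. With Katnal2 it was -0.31, 0.14, -0.84 and 0.88 over the same sets, and with Srebf2 it was -0.04, -0.30, -0.53 and -0.08. The 8 genes most like the members' mean, of 12790 with a mean of at least 100, were Slc5a7, Rab9b, Prkar2b, Tax1bp1, Itgb1, Glra2, Eloa and Pla2g4a, with r of 0.81 to 0.85. Without the replicate 5 mice their r was 0.56 to 0.75.

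Levels between genes can be compared only per length. Divided by the longest annotated transcript, Hmgcs1 was the most abundant member in every group, at 2752 ± 88.3 normalized counts per kb in WT mice at P21 (mean ± SD, n = 5) and 1697 ± 288 at P70, apart from the next gene in all mice. At P21 in WT mice Idi1 (722 ± 38.1), Cyp51 (717 ± 62.1) and Fdft1 (684 ± 49.3) followed with overlapping levels, then Sqle (540 ± 16.6) and Fdps (507 ± 43.6), which overlapped each other, then Dhcr7 (446 ± 8.62), which overlapped Fdps, and Lss (250 ± 51.0). At P70 in WT mice Fdft1 was second (590 ± 44.6), ahead of Idi1 (466 ± 73.6), with which it overlapped. Lss was lowest in every group. The order depends on the length used: divided by the longest protein-coding transcript, a choice made after seeing the data, Fdps was second in all groups, at 1083 ± 93.1 per kb in WT mice at P21, and Sqle was in place 3 at P21 and 4 at P70, at 874 ± 26.9 in WT mice at P21. The levels of Dhcr7 and Lss then overlapped in every group but KO at P70.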

How the data were processed

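Whole-brain RNA of 20 male mice (5 per group) was sequenced from poly-A libraries (TruSeq). The authors quantified transcripts against GRCm38 with Salmon 1.1.0, correcting for GC bias, imported them through tximport and applied the normalization of DESeq2 (version 1.26.0 in the submitters' processing notes, with R 3.6.2). The deposited signal values are these normalized counts, not raw counts. Symbols came from GENCODE M21 (19447 of 19463 IDs). Each comparison was fitted on its 2 groups, and the interaction on all 20 mice, by lmFit and eBayes of limma 3.58.1 (R 4.3.3), the latter with its trend option. The scale was log2(value + 1), a mean of 10 or more was required, and tests were two-sided, with Benjamini-Hochberg adjustment over all genes tested and a threshold of 0.05. Fold changes are on this scale. The fit was tested on simulated data. Mice are separate animals. Alternatives were other pseudocounts, filters and scalings, no trend, 1 fit for all mice, a replicate block and mice left out.

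The members and lists (80 other pathway genes, 69 markers) were chosen with earlier results of these data known. The named genes are the 8 members, Srebf2 and Katnal2, up to 4 genes per list past the threshold with the largest WT change with age, and the 8 genes with the highest r to the members' mean. Promoter sequences are RefSeq's (GRCm38.p6), and Fdps, Fdft1 and Sqle are named only. Depth was estimated from the densest point of the low values of each mouse and is approximate. No libraries were identical. Some listed genes are not reported here and were left out of their lists.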

Additional observations from a re-analysis of the deposited data

Results flagged for a closer look

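In 40 groups of 5 mice (the 8 members, Srebf2 and Katnal2 in 4 groups each), the gap of the highest or lowest mouse to its neighbour was divided by the range of the group, and 6 passed Dixon's critical value of 0.71. Chance gives about 1 in 20 groups, and groups that share a mouse are not independent. For Hmgcs1 at P70 the lowest mouse was replicate 5 in WT (4128 normalized counts, ratio 0.776) and in KO (4108, ratio 0.853). Idi1 in P70 KO mice was also lowest in replicate 5 (1010, ratio 0.713). Fdps was highest in replicate 5 at P70 in WT (1537, ratio 0.746) and in KO (1607, ratio 0.849). Dhcr7 in P21 KO mice was lowest in replicate 5 (1050, ratio 0.869). The cause was not tested.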

How the results depend on the processing

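Every age change of a member kept its sign under all settings. Leaving out replicate 5 of every group moved the counts of genes with age to 1412 higher in WT and to 1707 higher and 1710 lower in KO mice, and gave 1 gene higher in KO against WT mice at P70. When single mice were left out, the genes called with age were 414 to 1569 higher and 498 to 1431 lower in WT and 410 to 1864 higher and 486 to 1895 lower in KO mice, fewest without replicate 4 of P21 and most without replicate 5 of P70, while genes lower in KO at P21 were 0 to 1. Members that fell were then 5 to 8 in WT and 6 to 8 in KO mice. The WT call of Fdps was also lost without the trend (adjusted p = 0.0833) and after quantile normalization (0.0510), and Fdft1 passed in KO mice when all 20 mice were in 1 fit (0.0391). Besides the changes given with mice left out, calls of other named genes were lost without the trend in WT for Elovl6, Hsd17b7, Kcnj13, Lrp1, Me1 and Slc17a7 (adjusted p of 0.0557 to 0.0879) and in KO for Abca7, Lrp1 and Npc2 (0.0645 to 0.0770), and with the replicate block in WT for Abcg1, Elovl6, Lrp1, Me1, Nr1h3 and Slc17a7 (0.0561 to 0.127) and in KO for Abca7, Lrp1, Npc2 and Nr1h3 (0.0589 to 0.0732). Fewer were lost with 1 fit for all mice (Elovl6 and Hsd17b7 in WT), quantile normalization (Snap25 in WT, Abca7 in KO), no filter (Slc17a7 in WT, Abca7 in KO), pseudocount 10 (Slc17a7 in WT) and equal sums (Kcnj13 in WT). Calls gained were those of Kl (block, 1 fit), Elovl6, Me1 and Slc17a7 (1 fit) in KO, and of Acss2 (1 fit, quantile, mean of at least 100) and Sox9 (1 fit, quantile, block) in WT mice. Same-numbered mice are different animals, and their numbers were not taken as pairs because the r of same-numbered deviations was not over 0.1 for every pair: it was 0.0051 to 0.26 between genotypes at P21 (mean 0.10) and 0.062 to 0.71 at P70 (mean 0.26), and its mean was -0.02 across ages in KO and 0.04 in WT. Between genotypes, mice with different numbers had a mean r of -0.025 at P21 and -0.056 at P70, below that of same-numbered mice. KO mice were most like the WT mouse of their own number in 3 of 5 cases at P21 and 4 of 5 at P70. Whether same-numbered mice shared a handling step is not known, and this is a hint from the data. With the replicate block 399 genes rose and 514 fell with age in KO mice, and no gene passed in KO against WT mice, where genes at an unadjusted p under 0.05 went from 429 to 732 at P21 and from 199 to 610 at P70 (members 1 and 0 with the block). The median r over pairs of members was 0.45 at P21 alone.

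Differences between KO and WT mice, none of which passed the threshold, turned direction in places. Without replicate 5 of every group Sqle at P21 was 0.018, Dhcr7 and Fdft1 at P70 were -0.040 and -0.017, and the interaction was -0.011 for Cyp51, -0.048 for Fdps and -0.00016 for Sqle. With single mice left out, the range at P21 was -0.0047 to 0.055 for Fdft1, -0.038 to 0.052 for Fdps, -0.0017 to 0.052 for Hmgcs1, -0.037 to 0.011 for Idi1, -0.17 to 0.020 for Lss, -0.042 to 0.010 for Sqle and -0.0059 to 0.030 for Srebf2. At P70 it was -0.092 to 0.076 for Cyp51, -0.020 to 0.11 for Dhcr7, -0.058 to 0.046 for Fdft1, -0.071 to 0.15 for Fdps, -0.15 to 0.090 for Hmgcs1, -0.14 to 0.059 for Idi1 and -2.0e-05 to 0.033 for Sqle. For the interaction it was -0.043 to 0.12 for Cyp51, -0.085 to 0.019 for Fdft1, -0.083 to 0.14 for Fdps, -0.18 to 0.065 for Hmgcs1 and -0.14 to 0.064 for Idi1. The cause was not tested. With 5 mice per group, the data do not exclude differences within the intervals given.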
